A study of Owenia fusiformis with 9 samples.

Results

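The ovary and the body wall of adult female *Owenia fusiformis*, a tube-dwelling annelid, were compared by RNA-seq, with 1 library for each tissue. Of the 31911 transcripts in the expression matrix, 15215 (47.7%), from 13863 genes, had a normalized value of 50 or more in the ovary or the body wall, and these were taken as the transcripts to compare. They were set apart by log2((ovary + 10)/(body wall + 10)), where the added 10 damps ratios between low values. The ovary was dissected from 1 female, and both tissues carry a female label. The body wall is placed in the same worm only because the dissection notes list muscle for that female. No worm was given a treatment, and all were kept in artificial sea water with mud and fed algae. The other 7 adult libraries were used to see where else the same transcripts were found. Of these, tail and head came from a pool of 5 females and gut from 1 female, while blood vessel, testis, retractor muscle and head plus chaetae (chaetae are the bristles of the worm) came from 1 male.

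The ovary makes oocytes, which store large amounts of messenger RNA and protein for the embryo, and in many annelids the germ cells ripen in the body cavity. The body wall of an annelid holds the epidermis, which is secretory in tube builders, together with circular and longitudinal muscle and nerves. A dissected sample of either tissue is a mixture, and in such bulk RNA a change in the cells present cannot be told apart from a change in RNA per cell. The matrix names transcripts by identifier only. The reference annotation lists 27038 genes and held 0 of these identifiers, so that functions could not be assigned and neither tissue label could be checked against marker genes.

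Close to 16474397 reads lay behind the ovary values and 17220174 behind the body wall values, and in the other 7 libraries the number was between 14608988 and 22177997. A value of 50 was about 73.0 reads in the ovary and 84.0 reads in the body wall. Testis and retractor muscle stood apart from the rest, as 77.4% of all testis values and 66.5% of all retractor muscle values belonged to the 10 most abundant transcripts, against 7.34% to 16.1% elsewhere. Their values also summed to 122592193 and 56451691, against 9938696 to 13848990 in the other 7 libraries, and a value of 50 in the testis was only 9.05 reads. Levels in these 2 libraries therefore depended strongly on the scaling, and values with all 9 libraries brought to the mean sum of ovary and body wall, below called equal library sums, are given where they turn an order or move a share. With 1 library per tissue there was no spread between replicates to set a difference against, and no test was made. The intervals below account for counting error only and say nothing of how worms or dissections vary.

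The ovary and the body wall differed by 2-fold or more in 9626 of the 15215 transcripts compared. In the ovary 4442 were higher (29.2%), with a median of 327 in the ovary and 74.5 in the body wall. In the body wall 5184 were higher (34.1%), with a median of 36.3 in the ovary and 232 in the body wall. The remaining 5589 (36.7%), here called shared, had medians of 158 in the ovary and 157 in the body wall. Over all compared transcripts the log2 ratio had a median of -0.11, with 25% below -1.56 and 25% above 1.23. The lower tail was the longer, since the 5th percentile was -3.70 and the 95th was 2.80. No read was recovered in the body wall for 147 of the ovary-higher transcripts, and none in the ovary for 358 of the body wall-higher transcripts.

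**Figure D1:**
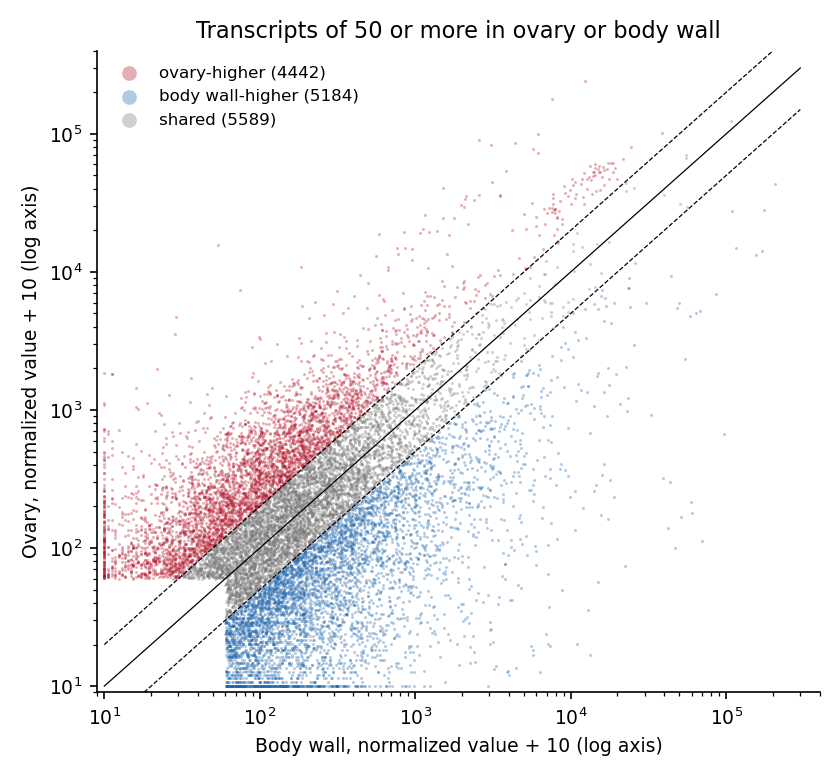
Normalized values plus 10 in the ovary (vertical, log axis) and the body wall (horizontal, log axis) for the 15215 compared transcripts, 1 point each. The solid line marks equal values and the dashed lines a 2-fold difference. The 4442 ovary-higher transcripts lie above the upper dashed line and the 5184 body wall-higher ones below the lower one.

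Counting error was small against most of these differences. The exact 95% interval of the ratio lay wholly beyond 2-fold for 3953 of the ovary-higher transcripts (89.0%) and for 4696 of the body wall-higher ones (90.6%). Among the shared transcripts, the interval lay wholly within 2-fold for 3783 (67.7%). Near the limit the classes ran into each other, as 855 shared transcripts differed by 1.8-fold or more and 735 others by less than 2.2-fold. The closest values on either side of the limit were log2 ratios of 1.00005 and 0.999865 towards the ovary. The closest on either side of the level of 50 were 50.03 and 49.99. The balance between the tissues depended on scaling. When both libraries were brought to the same sum, the median log2 ratio moved to -0.28, and 4069 transcripts were higher in the ovary and 5639 in the body wall.

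The classes took unequal shares of the 2 libraries. Ovary-higher transcripts made up 68.6% of the summed ovary values and 16.9% of those of the body wall. Body wall-higher transcripts made up 7.60% of the ovary and 57.8% of the body wall. The shared transcripts took nearly the same part of both, 22.7% of the ovary and 24.0% of the body wall. The share of transcripts with similar values fell with level. Where the higher of the 2 values was between 50 and 100, 43.6% of 3213 transcripts were shared, and where it was 10000 or more, 24 of 230 were (10.4%). At these highest levels 127 transcripts were ovary-higher (55.2%) and 79 body wall-higher (34.3%). In the bin below, from 3000 to 10000, the order was the other way, with 153 ovary-higher (34.0%) and 213 body wall-higher (47.3%). The ovary-higher share thus did not climb evenly with level.

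**Figure D2:**
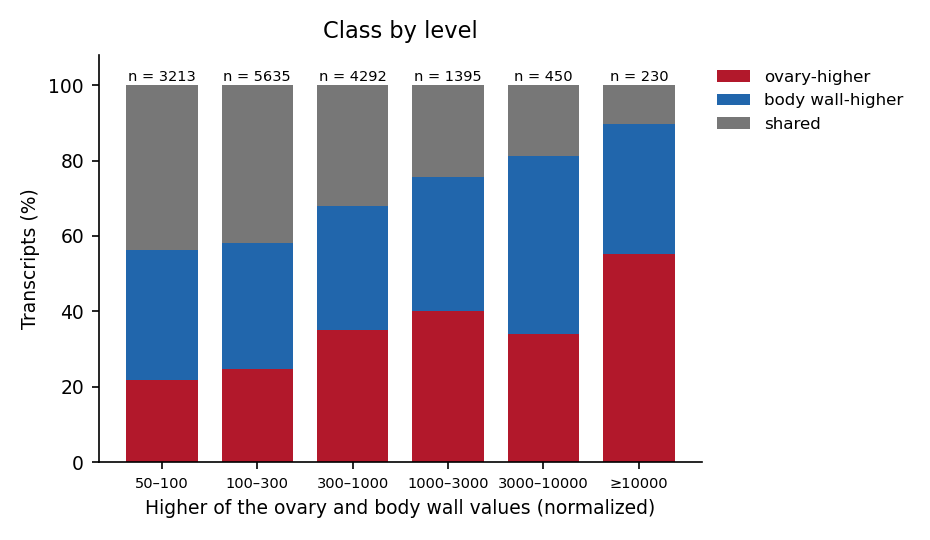
Percentage of transcripts in each class (stacked bars) by the higher of their ovary and body wall values, with the number of transcripts above each bar. Shared transcripts (grey) make up 43.6% of the lowest bin and 10.4% of the highest.

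OFUSG20018.2 had the largest ratio towards the ovary, with a value of 15655 in the ovary and 44.0 in the body wall. That was a log2 ratio of 8.18 on the +10 scale, or 356-fold without the added 10 (exact 95% counting interval 283 to 453). It had 38.7 in the tail, 44.5 in the blood vessel and 24.8 in the retractor muscle. In the testis, gut, head and head plus chaetae it had no read. The other isoform of this gene showed the opposite order, with 185 in the ovary and 850 in the body wall, and was at 603 in the tail. The gene was thus read mainly through different isoforms in the 2 tissues. OFUSG16273.3 had 1838 in the ovary and no read in the body wall. Against a floor of 3 reads in the body wall library the ratio was 1029, and the exact 95% counting interval of the ratio began lower, at 836. Its log2 ratio on the +10 scale was 7.53. It was under 80 everywhere else, with 77.4 in the testis and 39.8 in the blood vessel as the highest. The first isoform of the same gene was also abundant in the ovary, at 1872 against 246 in the body wall, but was found more widely, with 652 in the head.

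In the other direction, OFUSG18352.1 had 6.88 in the ovary and 13250 in the body wall, a log2 ratio of -9.62. The ovary value rests on 10 reads, and the body wall value was 1927 times as high (exact 95% counting interval 1051 to 4033). This transcript was also high in the tail, at 5301, and in the head, at 1205, with 121 in the gut and no read in the blood vessel or the retractor muscle. OFUSG06053.1 had 102 in the ovary and 69788 in the body wall, a log2 ratio of -9.28, or 684-fold without the added 10 (582 to 808). Its value in the tail, 356653, was above that in the body wall, and it reached 38812 in the head and 11309 in the head plus chaetae. In the blood vessel it was at 18.0. Both body wall-higher transcripts were thus also high in the tail and head of the pooled females. Among the shared transcripts, the largest values in both tissues were those of OFUSG13636.1, with 124712 in the ovary and 106842 in the body wall (log2 ratio 0.22), and OFUSG08849.1, with 70197 and 55244 in the same order (0.35). In the other 7 libraries OFUSG13636.1 lay between 99913 and 543550, and OFUSG08849.1 between 39218 and 206676. For both, the blood vessel was lowest and the testis highest on the authors' scale. With equal library sums the testis was lowest instead, at 47750 for OFUSG13636.1 and 18156 for OFUSG08849.1, and the gut highest, at 213253 and 97111 in the same order.

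The 127 ovary-higher transcripts of 10000 or more in the ovary fell into 2 kinds by their level elsewhere, a split made after the values were seen. In 32 of them the value was under 1% of the ovary value in head, head plus chaetae, blood vessel, testis and retractor muscle alike. These 32 ranged from 10307 to 240987 in the ovary and together took 13.5% of that library. The most abundant transcript of the ovary was among them, with 240987 in the ovary and 12274 in the body wall. It had 6740 in the tail, 867 in the gut, 681 in the blood vessel, 258 in the retractor muscle, 118 in the head, 77.4 in the testis and 3.6 in the head plus chaetae. The next had 179433 in the ovary and 7548 in the body wall, with 4839 in the tail, 599 in the gut and 31.3 in the blood vessel. In both, the order after the ovary was body wall, tail and gut. The other 5 libraries were held under 1% of the ovary by the choice of these transcripts, so this order is largely set by it.

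In the body wall these 32 transcripts were at 0.28% to 9.70% of their ovary value. The body wall value was 6.15% of the ovary value at the median, and between 2.96% and 8.63% from the 5th to the 95th percentile. In the tail it was 4.51% (2.2% to 6.62%) and in the gut 0.48% (0.23% to 0.82%). The head, from the same pool of females as the tail, had 0.14%, but head values under 1% were part of the choice of these transcripts, whereas tail and gut values were not. Between the same percentiles the ovary values spanned a 10.2-fold range and the body wall percentages a 2.91-fold range. OFUSG20018.2, which is 1 of the 32, was the lowest in the body wall, at 0.28%. In all, the 32 made up 0.84% of the body wall values and 0.51% of the tail values. These percentages were measured only on transcripts so abundant in the ovary, and whether RNA of ovarian origin was present in the body wall sample was not tested. Taking 6.15% of each ovary value away from the body wall left 4897 transcripts higher in the ovary, 5068 higher in the body wall and 5204 shared. Without this step the class sizes were 4442, 5184 and 5589 in the same order. The 6.15% is a median over the 32 chosen transcripts. Wherever the percentage was lower, as for OFUSG20018.2, the step took away more than the whole body wall value. The changed class sizes are therefore no test of where the RNA came from.

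Most of the other 95 abundant ovary-higher transcripts were found broadly, as 87 had 1000 or more in all 9 libraries. Of the remaining 8, 5 were under 50 in the testis, 4 in the retractor muscle and 3 in the blood vessel. The median of the 95 was 34746 in the ovary and 9023 in the body wall. Retractor muscle stood at 32740 and testis at 33535, and the median was 17842 in the gut, 17518 in the blood vessel, 17388 in the head, 15181 in the tail and 11514 in the head plus chaetae. The body wall value was 27.8% of the ovary value at the median. Only 34 of the 95 were highest in the ovary, and 38 were highest in the testis and 16 in the retractor muscle on the authors' scale. On equal library sums 87 were highest in the ovary and 0 in the testis or the retractor muscle, and the medians were 33147 in the ovary and 9480 in the body wall, against 2946 in the testis and 6246 in the retractor muscle. Together they took 30.4% of the ovary values and 9.50% of those of the body wall. They thus took a larger part of both libraries than the 32 transcripts that were low elsewhere.

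**Figure D3:**
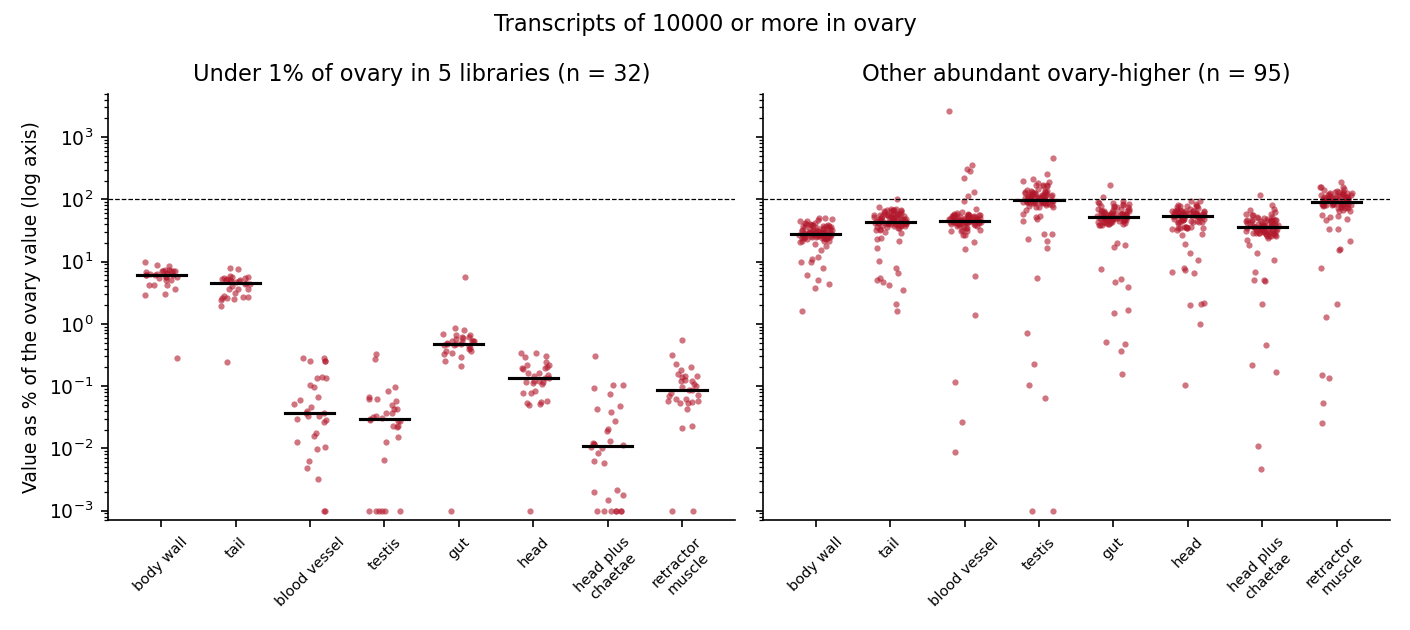
Values in 8 libraries as a percentage of the ovary value (log axis) for the 127 ovary-higher transcripts of 10000 or more in the ovary. The left panel holds the 32 under 1% of ovary in 5 libraries, the right panel the other 95, and each point is a transcript. Bars are medians, the dashed line marks the ovary level, and values under 0.001% are drawn at 0.001%. In the left panel the body wall and tail medians are 6.15% and 4.51%.

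The 79 body wall-higher transcripts of 10000 or more were taken whole, with no choice by their level elsewhere. The ovary value was 8.43% of the body wall value at the median, but from 0.20% to 42.5% between the 5th and 95th percentiles, and 15 of the 79 were under 1%. Their median was 1807 in the ovary and 18072 in the body wall. It was 9782 in the tail, 5857 in the head plus chaetae, 3135 in the head, 2244 in the gut, 2064 in the retractor muscle, only 160 in the testis, and 33.1 in the blood vessel. The testis median with equal library sums was 14.1 and that of the retractor muscle 394. They took 3.02% of the ovary values, 27.9% of the body wall values and 16.3% of the tail values. Of the 79, 48 were highest in the body wall, 11 in the tail and 10 in the head plus chaetae. Over all compared transcripts the shares highest in these libraries were 10.4%, 6.89% and 9.53%. In the whole body wall-higher class they were 25.9%, 13.7% and 16.8%. After the body wall, the medians of the 79 were thus highest in tail and head plus chaetae. On the authors' scale the head median was nearer to that of the gut than to that of the head plus chaetae. Blood vessel and testis had the lowest medians, as they did in the whole class, at 23.7 and 44.2.

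The shared transcripts were found in most other tissues. In the tail 4865 of 5589 (87.0%) were at 50 or more, against 79.8% of all 15215 compared transcripts. In the blood vessel 4413 were (79.0%, against 63.8%), and in the testis 4285 (76.7%, against 61.6%). On the authors' scale, all of tail, blood vessel and testis held 3596 of the shared transcripts (64.3%, against 47.8%). On the same scale 240 (4.29%, against 9.50%) were in none of these 3. In all 9 libraries 3117 shared transcripts were at 50 or more (55.8%, against 39.2%). The shared class itself requires similar values in ovary and body wall, which are among these 9. With equal library sums, no joint share that includes the testis could exceed the 17.3% of shared transcripts at 50 or more there. The medians of the shared transcripts in tail, blood vessel and testis were nearly the same as in the ovary and body wall. They were 156 in the tail, 159 in the blood vessel and 160 in the testis, although the testis median was 14.1 with equal library sums. The values of single transcripts varied more. The tail value was within 2-fold of the middle of the ovary and body wall values for 4567 (81.7%), but the testis value for only 3251 (58.2%) and the blood vessel value for 3118 (55.8%). Of the shared transcripts, 1224 (21.9%) were highest in the blood vessel and 982 (17.6%) in the testis, against 17.6% and 11.2% of all 15215. With equal library sums, however, 1121 were highest in the blood vessel and 12 in the testis. With the testis brought to the mean sum of ovary and body wall, 17.3% of shared transcripts were at 50 or more there, against 85.2% in the tail and 74.1% in the blood vessel treated alike. A level of 50 reads in place of 50 gave 33.4% in the testis.

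**Figure D4:**
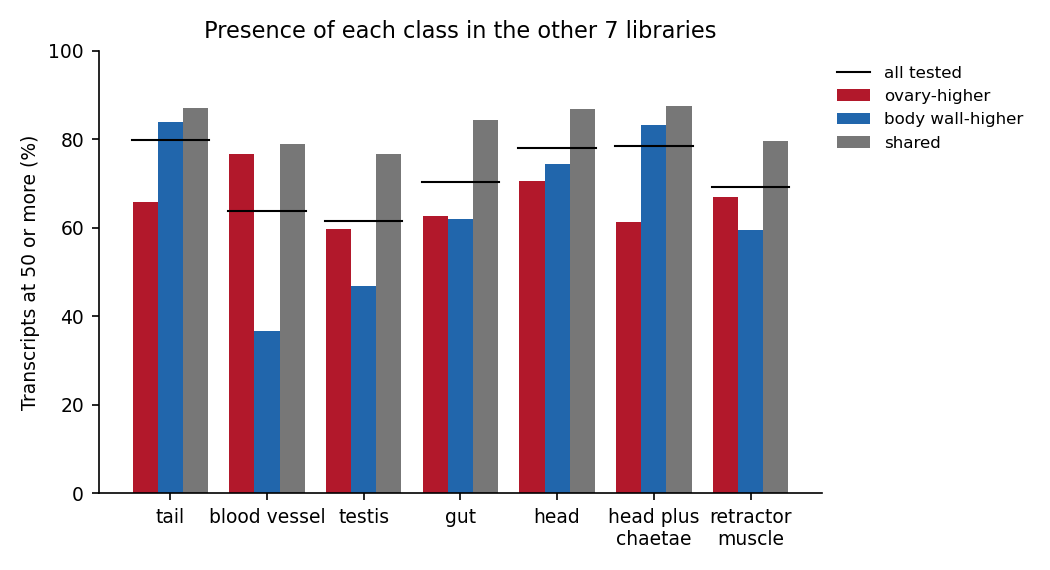
Percentage of transcripts at a normalized value of 50 or more in each of the other 7 libraries, for the 4442 ovary-higher, 5184 body wall-higher and 5589 shared transcripts (bars) and for all 15215 (black lines). In the blood vessel the ovary-higher bar stands at 76.6% and the body wall-higher bar at 36.6%.

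The ovary-higher transcripts were found more often in the blood vessel than in the tail, while the order over all compared transcripts was the other way. At 50 or more were 3402 of 4442 in the blood vessel (76.6%), 2922 in the tail (65.8%) and 2657 in the testis (59.8%). Over all 15215 these shares were 63.8%, 79.8% and 61.6%, so that the testis share was close to that of all transcripts. Their median was 249 in the blood vessel, against 86.1 in the tail and 88.4 in the testis, and 83.3 in the gut and 75.6 in the head plus chaetae. In the blood vessel 2652 (59.7%) were no more than 2-fold below the ovary, and in the tail 892 (20.1%) were, against 68.3% and 71.0% of all 15215. Of the ovary-higher transcripts 2252 were highest in the ovary (50.7%) and 1276 in the blood vessel (28.7%). In the testis 248 were highest (5.58%) and in the tail 32 (0.72%). Over all 15215 these shares were 18.2%, 17.6%, 11.2% and 6.89%. An ovary value above that of the body wall was part of the choice of this class. The 1276 had medians of 258 in the ovary, 64.2 in the body wall and 738 in the blood vessel, while the 2252 had 474 in the ovary, 95.1 in the body wall and 163 in the blood vessel. Of the 4442, 296 were at 50 or more in the ovary alone and 200 in exactly ovary and blood vessel. In exactly ovary and testis there were 18, and 18 in exactly ovary and tail. The other pairs with the ovary were 54 for the head, 39 for the gut and 33 for the retractor muscle. For the body wall the pair held 25, and for the head plus chaetae 19. With equal library sums, 2738 in place of 2252 were highest in the ovary, 1059 in place of 1276 in the blood vessel and 29 in place of 248 in the testis, and 13.0% in place of 59.8% were at 50 or more in the testis.

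The body wall-higher transcripts were found in the tail about as often as all compared transcripts, and less often in the blood vessel. At 50 or more were 4354 of 5184 in the tail (84.0%), 2431 in the testis (46.9%) and 1899 in the blood vessel (36.6%), against 79.8%, 61.6% and 63.8% of all 15215. The testis share was 10.6% with equal library sums, and at 50 reads in place of 50 it was 19.3%. The median was 191 in the tail, 44.2 in the testis and 23.7 in the blood vessel. It was 194 in the head plus chaetae, from the male, where 83.2% were at 50 or more, against 78.4% of all 15215. In the tail 3680 (71.0%) were no more than 2-fold below the body wall, and in the blood vessel 966 (18.6%) were, against 85.1% and 59.5% of all 15215. The blood vessel had no read for 788 of them and the tail for 81. Body wall-higher transcripts made up 49.9% of the summed tail values, 35.8% of the head plus chaetae, 6.24% of the blood vessel and 1.31% of the testis. Of the 5184, 1343 were highest in the body wall (25.9%) and 708 in the tail (13.7%), against 10.4% and 6.89% of all 15215. At 50 or more in the body wall alone were 155, and 146 in exactly body wall and tail. The other pairs with the body wall were 95 for the head plus chaetae, 44 for the gut, 28 for the head and 21 for the retractor muscle. For blood vessel, testis and ovary they were 8, 6 and 4.

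Each other library was also placed between the 2 tissues, by whether its value was nearer to the ovary or to the body wall on the log2(value + 10) scale. Of the ovary-higher transcripts, 57.9% were nearer to the ovary in the blood vessel, 26.8% in the testis and 13.8% in the tail. In the gut, head and head plus chaetae these shares were between 15.6% and 23.6%. Of the body wall-higher transcripts, 82.5% were nearer to the ovary in the blood vessel, 68.9% in the testis and 25.7% in the tail. Over all 15215 compared transcripts these shares were 65.9%, 48.7% and 27.7% in the same order. The blood vessel share of ovary-higher transcripts was thus below that of all, and the tail share of body wall-higher ones near it. The blood vessel was still the only 1 of the 7 libraries nearer to the ovary for most transcripts of both classes. The tail lay nearer to the body wall in both. For body wall-higher transcripts the blood vessel median was 23.7, under the ovary median of 36.3. Nearness of the blood vessel to the ovary in this class thus largely meant a low value. With equal library sums the blood vessel share among ovary-higher transcripts was 48.4%, under 50%, and that of the tail 11.2%. The testis shares then became 2.14% and 97.2%, which means that nearly all testis values lay on the low side. The blood vessel and testis are from a male and the tail from a pool of females, so tissue, sex and worm cannot be told apart.

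**Figure D5:**
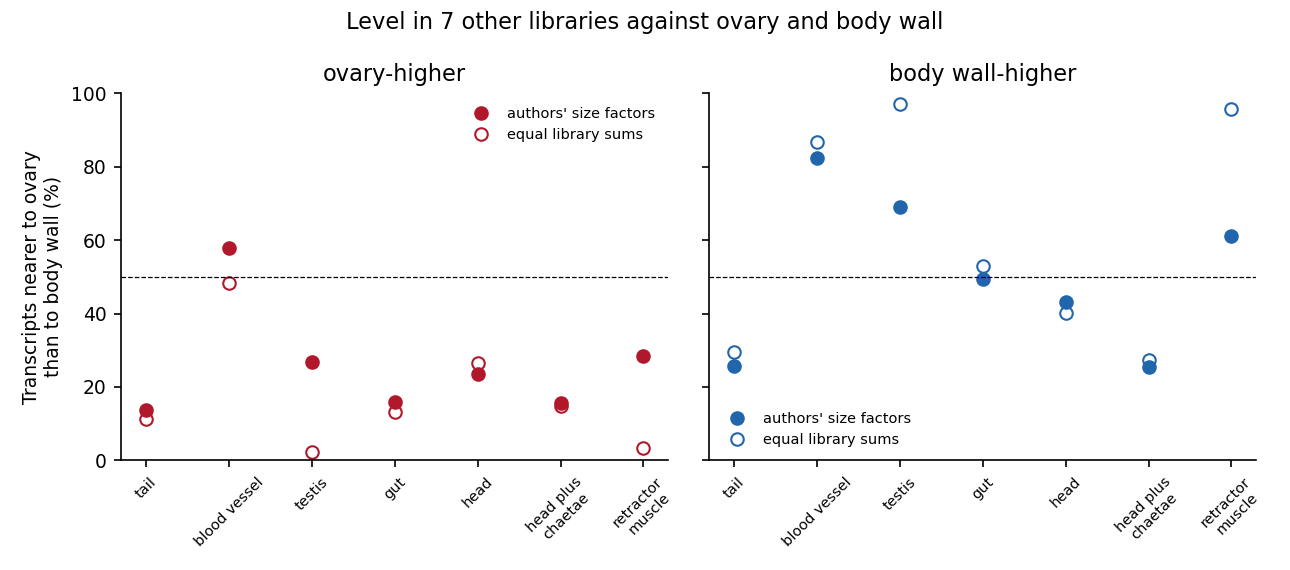
Percentage of ovary-higher (left) and body wall-higher (right) transcripts whose value in each of 7 other libraries was nearer to the ovary than to the body wall. Filled points use the authors' size factors, open points equal library sums, and the dashed line marks 50%. The blood vessel stands at 57.9% (left) and 82.5% (right) on the authors' scale, and testis and retractor muscle shift most between scales.

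The transcripts that differed most were found in fewer libraries, more clearly so on the ovary side. In the ovary 396 transcripts were higher by 10-fold or more (2.60%), with a median of 528 in the ovary and 16.4 in the body wall. In the body wall 1081 were (7.10%), with a median of 12.3 in the ovary and 463 in the body wall. On the authors' scale, the median number of libraries at 50 or more was 3 for the 396 and 5 for the 1081. For their whole classes it was 7 and 6. A 10-fold difference itself keeps the value low in ovary or body wall, which lowers these numbers. Of the 396, 284 were highest in the ovary (71.7%) and 40 in the blood vessel (10.1%), against 18.2% and 17.6% of all 15215. At 50 or more were 163 of the 396 in the tail (41.2%), 143 in the blood vessel (36.1%) and 105 in the testis (26.5%). Over all 15215 these shares were 79.8%, 63.8% and 61.6%. The blood vessel value was nevertheless no more than 2-fold below the ovary for 83 (21.0%), against 22 (5.56%) in the tail. It was nearer to the ovary for 28.3%, against 9.85% in the tail. Over all 15215 the blood vessel and tail shares were 68.3% and 71.0% on the first measure. On the second they were 65.9% and 27.7%. In none of tail, blood vessel and testis were 136 of the 396 (34.3%) on the authors' scale, against 9.50% of all 15215. Of the 1081, 938 were at 50 or more in the tail (86.8%), 313 in the testis (29.0%) and 206 in the blood vessel (19.1%). The testis shares with equal library sums were 6.82% of the 396 and 5.74% of the 1081. Their median in the tail, 324, was the highest among the 7 other libraries. For the 396 no other library held more than the 41.2% of the tail at 50 or more, whereas for the 1081 the tail, head plus chaetae and head each held over 70% of them.

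Isoforms of the same gene did not always go together. Of 1138 genes with 2 or more compared isoforms, 161 (14.1%) had an isoform higher in the ovary and another higher in the body wall. In 122 genes all compared isoforms were ovary-higher, in 255 all were body wall-higher and in 132 all were shared. When the isoforms of the 161 genes were summed, 103 (64.0%) were shared, 25 were ovary-higher and 33 body wall-higher. For most of these genes the summed level thus differed by less than 2-fold between the tissues, while the isoforms read differed. Pseudo-alignment divides reads common to several isoforms by estimation, and the split between isoforms of a gene carries that uncertainty. At a limit of 4-fold, 76 genes had isoforms in both directions.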

How the data were processed

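Adult tissues were sequenced on the BGISEQ-500 platform, 1 library each. Trimming was done by the authors with trimmomatic, quantification against their filtered gene set with kallisto, and normalization of the counts with DESeq2; the submitters' processing notes name kallisto 0.44.0, DESeq2 1.34.0 and R 4.1.2. The deposited table thus holds, for each transcript and library, a signal that was taken to be reads over a size factor. How estimates passed between the tools, and the genome build, are not given in the sources used here.

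Transcripts of 50 or more in ovary or body wall were compared by log2((ovary + 10)/(body wall + 10)), and 2-fold or more was called higher. No count test was possible with 1 library per tissue. The value of 1 read was the least-squares step of values of up to 20 reads, of which 96.1% in the ovary and 99.1% in the body wall lay within 0.1 read of a whole number, so recovered reads are approximate. Intervals of ratios are exact conditional binomial ones at 95%, taken without the added 10, and a count of 0 was given a floor of 3 reads. Named transcripts are the 2 with the largest and the 2 with the smallest log2 ratio, and the 2 shared ones with the largest lower value. The rule and the members were chosen with earlier results of these data known. Alternatives were other pseudocounts, levels, fold limits and scalings, and summed isoforms. Taking part of the ovary value from the body wall, and all alternatives for the abundant set, the isoforms, the library with the highest value and the medians with equal library sums, were chosen only once values had been inspected. The classification was run on simulated data with large planted changes in transcripts with many reads. That run does not test calls near the 2-fold limit or values near 50. Python 3.11.15, numpy 2.4.6, pandas 2.3.3, scipy 1.17.1 and matplotlib 3.10.9 were used.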

Additional observations from a re-analysis of the deposited data

How the results depend on the processing

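Of the 39 class sizes recomputed under 13 alternatives, 31 stayed within 1.5 times the reported size and 8 did not. With a pseudocount of 100, 2631 transcripts were higher in the ovary, 2911 higher in the body wall and 9673 shared. With a 4-fold limit these numbers were 1940, 2906 and 10369, and with a 1.5-fold limit 3304 were shared. With no filter beyond a value above 0, 16269 were shared. More transcripts were higher in the body wall than in the ovary under all 13 alternatives. The ovary's part of the higher calls was 46.1% as reported and between 40.0% and 49.4% under the alternatives, lowest with the 4-fold limit and highest with the median log2 ratio set to 0. Of 62 alternative values for other results, 52 left the 95% Wilson interval of the share or, for a count, its 1.5-fold range. That interval treats transcripts of 1 library as independent and is narrow because they are many. It says nothing of how worms or dissections vary. The testis shares moved most, since on the authors' scale 1 read is worth 5.53 there and a value of 50 is only 9.05 reads, although the testis had the most reads of the 9 libraries. Of the shared transcripts, 97.0% were at 20 or more in the tail, 89.3% in the blood vessel and 87.5% in the testis. The 32 transcripts abundant in the ovary and low in 5 libraries became 44 from a level of 3000, 33 with a limit of 3% and 31 with equal library sums. Without testis and retractor muscle, 1330 ovary-higher transcripts were highest in the blood vessel. No paired analysis was possible because each tissue had 1 library.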

Other observations

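On the authors' scale, most body wall-higher transcripts were highest in a tissue other than body wall or tail. Of the 5184, 870 (16.8%) were highest in the head plus chaetae, 860 (16.6%) in the gut and 512 (9.88%) in the head. In the testis 475 (9.16%) were highest and in the retractor muscle 232 (4.48%). Over all compared transcripts these shares were 9.53%, 13.0%, 7.21%, 11.2% and 5.89% in the same order. The class was still shifted towards body wall and tail. These were highest for 25.9% and 13.7% of it, against 10.4% and 6.89% of all compared transcripts. With equal library sums 918 of the 5184 were highest in the head plus chaetae, 801 in the gut and 761 in the head. In the testis 14 were highest, in the retractor muscle 14 and in the body wall 1876. The 860 highest in the gut had medians of 39.8 in the ovary, 187 in the body wall and 531 in the gut, and of 173 in the tail and 144 in the head plus chaetae. The 708 highest in the tail had medians of 31.9 in the ovary, 273 in the body wall and 661 in the tail, but 8.64 in the gut and 4.74 in the blood vessel.

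In the female gut, 2779 of 4442 ovary-higher transcripts (62.6%) and 3212 of 5184 body wall-higher transcripts (62.0%) were at 50 or more, both below the 70.4% of all 15215 compared transcripts. Of the shared transcripts, 931 (16.7%) were highest in the gut and 1224 (21.9%) in the blood vessel, against 516 (9.23%) in the ovary and 239 (4.28%) in the body wall. With equal library sums these numbers were 1016, 1121, 803 and 697 in the same order. Over all 15215 on the authors' scale the shares highest in these libraries were 13.0%, 17.6%, 18.2% and 10.4%.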
